A study of Arabidopsis thaliana with 36 samples.

Results

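The comparison described here set anac017-1 seedlings sprayed with water against wild type seedlings sprayed with water. It rests on 6 arrays, 3 of each genotype, chosen by their labels from the 36 arrays of the series. anac017-1 is labelled a T-DNA knock-out line of ANAC017, and the wild type is Columbia of the line labelled Col:LUC. Whether anac017-1 carries the same LUC construct is not given in the sources used here, so any effect of it cannot be told apart from the effect of the ANAC017 insertion. All plants were 14 days old, grew on Gamborg B5 medium with 3% sucrose, and gave their green leaf tissue 3 h after the spray. The other arrays carry the same genotypes, the EMS line rao2 and the line anac017-2. The line rao2 was taken here as another mutant of ANAC017, and the series calls anac017-2 a gain-of-function mutant. The sprays were water, 20 mM hydrogen peroxide or 50 µM antimycin A, which blocks electron flow through respiratory complex III. Each of the 12 groups has 3 arrays. Whether the replicates were separate cultures is not stated, so each p-value refers to the spread among these arrays, which may be technical.

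ANAC017 is a NAC transcription factor held in the endoplasmic reticulum membrane and released by proteolysis when mitochondrial respiration is disturbed. The released protein enters the nucleus and raises a group of stress transcripts known as the mitochondrial dysfunction stimulon, among them the alternative oxidase AOX1A. This signalling from mitochondrion to nucleus is called retrograde signalling, and the water spray is the state in which it has not been provoked by an inhibitor. No probe set in the gene table was assigned to ANAC017, AOX1A, ANAC013 or ANAC016 (0 each), so the arrays gave no check of the knock-out label. Each array feature, a probe set, reports 1 value, and differences are on the log2 scale of the deposited intensity.

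The 6 water arrays had median intensities close to those of the rest of the series, where the array medians ran from 77.7 to 83.6. Pearson correlations over all probe sets were 0.994 to 0.9953 within the wild type, 0.9926 to 0.9953 within anac017-1 and 0.9878 to 0.9927 between the genotypes. The first principal component of the 6 arrays held 47.7% of their variance. The wild type arrays lay between -32.44 and -15.5 on it, and the anac017-1 arrays between 17.01 and 32.83. The control transcripts' 3′ signal exceeded their 5′ signal by 3.14 ± 0.166 (SD, n = 3) in the wild type and 3.27 ± 0.0414 in anac017-1. Green tissue markers were high in both genotypes: the antenna protein LHCB4.1 was at 14.16 in each, and the Rubisco activase RCA at 14.59 in the wild type and 14.64 in anac017-1. Both root markers on the gene table, EXPA7 and EXPA18, differed by -0.02 and 0.02 and were close to the background level of the arrays.

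In water, 855 probe sets were higher and 380 were lower in anac017-1 than in the wild type at an adjusted p under 0.05, which is 3.76% and 1.67% of the 22746 tested. Values of the 2 groups did not overlap for 7505 probe sets, or 33% of all, so an array-by-array separation alone is common here. Of the 1235 called, 1192 had groups that did not overlap. Of the 855 higher, 260 were higher by at least 1 on the log2 scale (a doubling), and 45 of the 380 lower were lower by as much. The median difference was 0.72 among the higher and -0.46 among the lower probe sets, beside -0.03 over all tested. Without wild type replicate 2 the total fell to 759, and without anac017-1 replicate 2 to 641. The 380 lower calls fell to 167 and 143 in these 2 fits and to 190 without anac017-1 replicate 1, and the 855 higher calls fell to 498 without anac017-1 replicate 2. A fit on the 6 arrays alone called 729, of which 513 were higher and 216 lower, and array weights raised the total to 3106, of which 1669 were higher and 1437 lower.

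Calls lay on all 5 chromosomes and were rare among the dimmest probe sets. On chromosomes 1 to 5, the share of probe sets called higher was 4.14%, 3.59%, 3.35%, 3.82% and 3.66%. With the probe sets split into 4 equal classes of mean level, the lowest class gave 6 higher and 13 lower calls, the second 197 and 91, the third 346 and 138, and the highest 306 and 138. The gene table assigned 1 gene to 710 of the 1235 called probe sets, several to 46 and none to 479, and only those with 1 gene are named below.

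**Figure D1:**
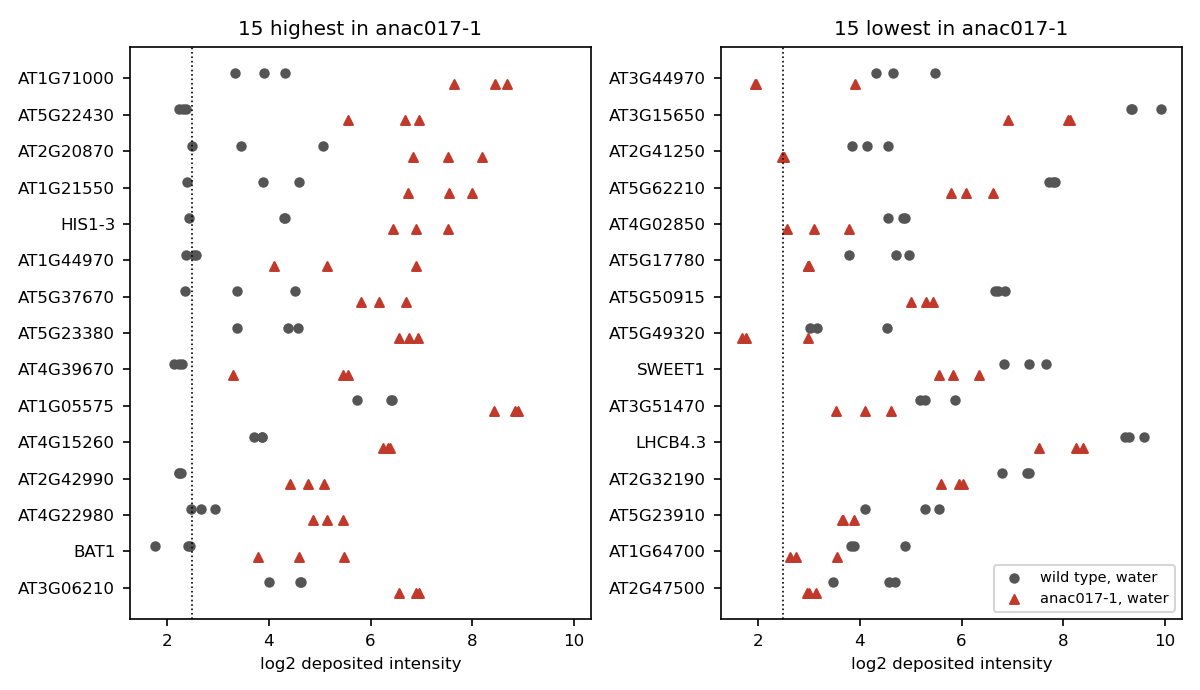
Log2 intensity on each of the 3 wild type arrays (grey circles) and 3 anac017-1 arrays (red triangles) in water, for the 15 named genes with the largest positive difference (left) and the 15 with the largest negative difference (right). The dotted line is the mean lower quartile of the arrays, 2.49, taken here as background. In all 30 genes the groups do not overlap, which the choice of the genes required, and in several of those on the left the wild type values lie at the dotted line.

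Many of the probe sets higher in water were called higher again under the other sprays. The antimycin A and hydrogen peroxide arrays share none of the 6 water arrays. There 1911 probe sets (8.4%) and 970 probe sets (4.26%) were called higher in anac017-1 than in wild type given the same spray. The spread behind these calls is shared by all groups, water arrays included, so they are not independent of the water calls. Only the differences themselves use no water array. Of the 855 higher in water, 493 (57.7%) were called higher again under antimycin A, and 472 (55.2%) under hydrogen peroxide. Only 6 and 0 of them were called lower, where 10.2% and 1.97% of all probe sets were. The median difference of the 855 was 0.50 under antimycin A and 0.51 under hydrogen peroxide, beside -0.03 and 0.02 over all probe sets. Altogether 363 probe sets were called higher under all 3 sprays.

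Of the 380 lower probe sets, 137 (36.1%) were called lower under antimycin A and 57 (15%) under hydrogen peroxide, where 10.2% and 1.97% of all probe sets were. Under all 3 sprays 25 of the 380 were called lower. In rao2, against wild type of the same spray, the 855 probe sets had medians of -0.01 under antimycin A and 0.02 under hydrogen peroxide. Of them 3.98% and 3.27% were called higher, where 2.77% and 1.54% of all probe sets were. In anac017-2 the medians were 0.07 and 0.03, with 25.8% and 0.468% called higher, where 23.9% and 0.0923% of all were, and with 24.7% and 0.117% called lower, where 15% and 0.0967% of all were.

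**Figure D2:**
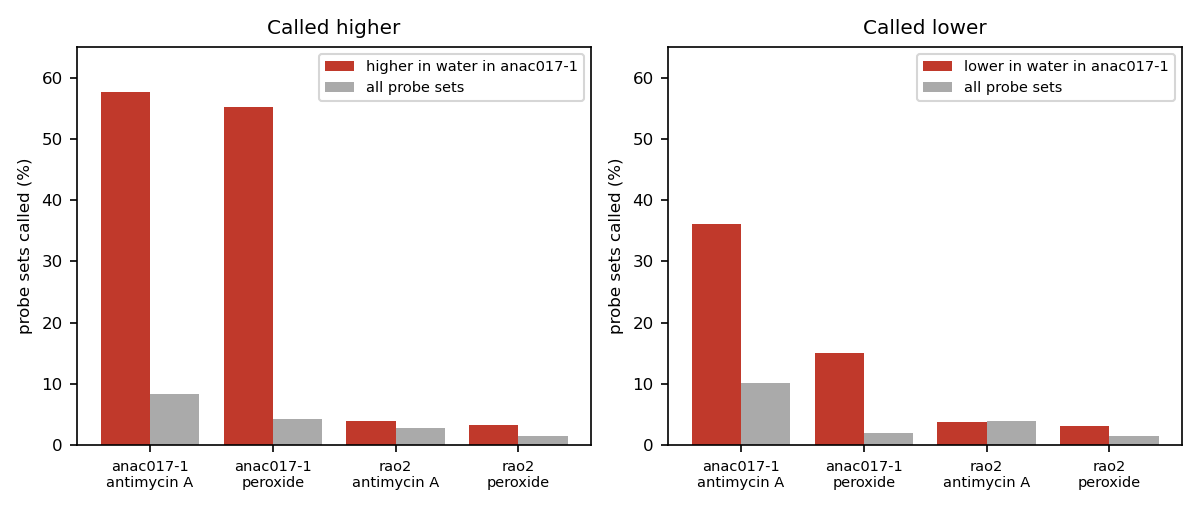
Percent of probe sets called at an adjusted p under 0.05 against wild type of the same spray. The mean differences use none of the water arrays, but the spread behind each call is shared by all groups, water arrays included. The red bars on the left are the 855 probe sets higher in anac017-1 in water, those on the right the 380 lower, and grey bars are all 22746. The red bars stand far above the grey ones in anac017-1, at 57.7% and 55.2% on the left, and at most 3.98% in rao2.

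The transcripts higher under every spray included some that the wild type arrays did not register. AT5G22430 read 2.23, 2.32 and 2.37 in the wild type and 6.67, 5.55 and 6.95 in anac017-1. All 3 wild type values were at or below the lower quartile of their arrays, so the transcript was not above background there and was higher by at least 3.88 in anac017-1 (fitted difference 4.09 ± 0.43 SE, adjusted p = 4.83e-07). It was likewise at background in the wild type under both other sprays, and higher by at least 1.85 under antimycin A and at least 3.51 under hydrogen peroxide. With 16 added to each intensity before the log2 step, which shrinks differences of dim probe sets, the water difference was 2.27.

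HIS1-3, a linker histone variant known for its induction by drought, read 2.43, 4.33 and 4.31 in the wild type and 7.52, 6.90 and 6.43 in anac017-1. Every anac017-1 array was above every wild type array, and 1 wild type array was at background. The difference was 3.26 ± 0.55 in water (adjusted p = 0.000336), 3.56 under antimycin A and 3.17 under hydrogen peroxide; fitted on the 6 water arrays alone it was not called (adjusted p = 0.0653). AT2G20870 followed with 2.49, 5.07 and 3.46 against 7.52, 6.83 and 8.18, a difference of 3.83 ± 0.61 in water, 5.07 under antimycin A and 3.93 under hydrogen peroxide, and on the 6 arrays alone its adjusted p was 0.0692. AT5G23380 was higher by 2.64 ± 0.28, 2.40 and 2.75 under the 3 sprays, and AT3G06210 by 2.39 ± 0.26, 1.73 and 1.88.

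GR, the glutathione reductase of chloroplasts and mitochondria that keeps glutathione in its reduced form, read 10.28, 10.25 and 10.11 in the wild type and 11.63, 11.39 and 11.39 in anac017-1. The arrays of the 2 groups were well apart, and the difference of 1.26 ± 0.11 is 2.40-fold (adjusted p = 1.98e-08). It was 0.80 under antimycin A and 1.33 under hydrogen peroxide, while rao2 and anac017-2 differed from the wild type in water by -0.02 and 0.01. GR was the 1 call among the 8 antioxidant enzymes measured (1 higher, 0 lower, where 3.76% and 1.67% of all probe sets were), and their median was -0.16.

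OTP70, a pentatricopeptide repeat protein of organelle RNA processing, read 2.87, 2.22 and 2.26 in the wild type, where 2 arrays were at background, and 3.27, 4.47 and 4.98 in anac017-1. With low values raised to the background level the difference was 1.60 (fitted 1.79 ± 0.34, adjusted p = 0.00126), and with 16 added to each intensity it was 0.74. On the 6 arrays alone it was not called (adjusted p = 0.132). A list of 22 genes of this family, added to the planned lists, was gathered by annotated name. Members of the family without such a name were left out, so it gives no count for the whole family. Of its 10 measured genes, OTP70 alone was called in water (1 higher, 0 lower, where 3.76% and 1.67% of all probe sets were). The median of the 10 was 0.18.

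UPF3, a core factor of nonsense-mediated decay, the pathway that removes messenger RNAs with premature stop codons, was higher in anac017-1 under all 3 sprays, and the other factors of the pathway were looked up after its value had been seen. It read 7.88, 7.92 and 7.91 in the wild type and 8.44, 8.33 and 8.49 in anac017-1. The spread within each group was small beside the gap, which was 0.52 ± 0.08 in water (1.43-fold, adjusted p = 0.000145), 0.52 under antimycin A and 0.63 under hydrogen peroxide. AT1G80000, the Arabidopsis counterpart of the exon junction factor Barentsz, was higher by 0.68 ± 0.12 in water (adjusted p = 0.000905; 0.0512 on the 6 arrays alone), 0.47 under antimycin A and 0.43 under hydrogen peroxide. The messages of UPF3 and of this factor are themselves known as substrates of the pathway in Arabidopsis. Of the 5 factors measured, these 2 were called higher and none lower in water, where 3.76% and 1.67% of all probe sets were. UPF2, AT2G39260, differed by 0.05, Y14 by 0.08 and AT1G28260 by -0.20, none of them called, and Y14 was called lower under antimycin A (-0.24, adjusted p = 0.0438). The median of the 5 was 0.08, beside -0.03 over all probe sets.

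CPUORF47, a gene named for a conserved upstream reading frame, read 6.56, 6.60 and 6.50 in the wild type and 8.96, 8.70 and 8.44 in anac017-1, with no overlap. It was higher by 2.14 ± 0.25 in water (4.42-fold, adjusted p = 2.03e-06), 2.16 under antimycin A and 1.93 under hydrogen peroxide. The list of genes with that name was added to the planned lists. Of its 2 genes, CPUORF47 was the 1 measured. AT1G36730, a gene for translation initiation factor eIF5, read 10.53, 10.54 and 10.52 against 11.58, 11.55 and 11.68, and the difference of 1.07 ± 0.08 (adjusted p = 4.73e-10) was 1.09 and 1.01 under the other sprays. AT5G45430, a protein kinase gene, was higher by 2.18 ± 0.14 in water (4.52-fold, adjusted p = 3.83e-11), 1.58 under antimycin A and 1.94 under hydrogen peroxide. AT1G54260 was higher by 1.94 ± 0.13 and AT3G55520 by 1.20 ± 0.07 in water, and both were called at the other sprays too. AT1G36730, AT5G45430, AT1G54260 and AT3G55520 were chosen after their values were seen. In rao2 in water none of these 7 genes was called, and their differences from the wild type ran from -0.08 for AT1G36730 to 0.47 for CPUORF47. What part these transcripts have in the other differences was not tested.

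**Figure D3:**
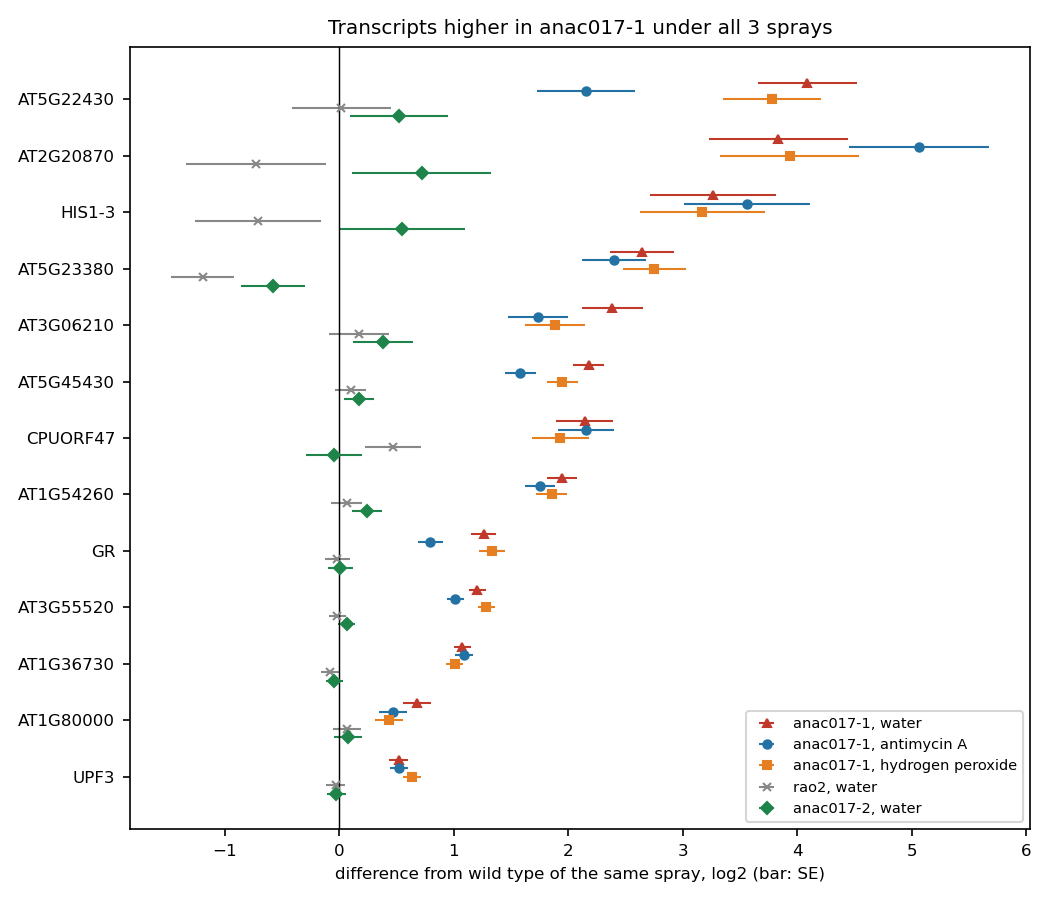
Difference from wild type of the same spray, on the log2 scale with SE from the model over all arrays, for 13 transcripts called higher in anac017-1 under each spray. Red, blue and orange symbols are anac017-1 in water, antimycin A and hydrogen peroxide, grey crosses rao2 in water and green diamonds anac017-2 in water. All anac017-1 symbols lie to the right of 0, from 0.43 for AT1G80000 to 5.07 for AT2G20870, while those of rao2 lie between -1.20 and 0.47.

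UPF3 also lies close to ANAC017 on chromosome 1. Among the 10 measured genes on each side of ANAC017 in the order of the RefSeq annotation, 3 of 20 were called higher in water and 0 lower, where 3.76% and 1.67% of all probe sets were. Besides UPF3 these were AT1G34270 and AT1G34300. AT1G34270 read 5.17, 4.18 and 5.35 in the wild type and 5.91, 6.27 and 6.35 in anac017-1, a difference of 1.28 ± 0.29 (adjusted p = 0.00693) that was 2.02 under antimycin A. Without wild type replicate 2 its adjusted p was 0.0811, and on the 6 arrays alone 0.131. AT1G34300 differed by 0.32 ± 0.09 (adjusted p = 0.04) and lost its call without any 1 of 5 arrays, with adjusted p up to 0.261. The other 17 neighbours were not called.

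A second group of transcripts was called higher in anac017-1 in water and not called higher under the other sprays. Heat shock proteins are chaperones that hold or refold damaged proteins, and their genes are known to be raised by oxidative stress as well as heat. Of the 14 measured genes on the heat shock list, 6 were called higher, 0 lower and 8 neither, where 3.76% and 1.67% of all probe sets were called higher and lower. The median difference was 1.16, beside -0.03 over all probe sets. The list holds AT5G51440, a mitochondrial small heat shock protein, at 0.29 ± 0.48 (adjusted p = 0.794), and the cytosolic Hsp70-2 at 0.16 ± 0.65 (adjusted p = 0.932), so the 6 were not matched by all chaperones. When 1 water array was left out at a time, between 4 and 5 of the list were called.

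AT1G71000, a DnaJ-domain co-chaperone, read 3.33, 4.32 and 3.91 in the wild type and 8.45, 8.68 and 7.65 in anac017-1. The lowest anac017-1 array was far above the highest wild type array, and the difference of 4.40 ± 0.80 is 21.2-fold (adjusted p = 0.00083). The wild type itself reached 6.16 ± 1.69 (SD, n = 3) under antimycin A and 9.87 ± 0.39 under hydrogen peroxide, where anac017-1 was at 4.70 ± 1.00 and 9.57 ± 0.58. The water level of anac017-1, 8.26 ± 0.54, therefore lay between the water and hydrogen peroxide levels of the wild type. The genotype difference under antimycin A was below that in water (change -5.87 ± 1.13, adjusted p = 0.00282), and under hydrogen peroxide the change of -4.71 was not called (adjusted p = 0.12).

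AT5G37670, a small heat shock protein, read 2.36, 3.38 and 4.51 in the wild type, where 1 array was at background, and 6.70, 6.16 and 5.81 in anac017-1. The groups did not overlap, and the difference was 2.81 ± 0.52 (adjusted p = 0.000956; 0.0811 on the 6 arrays alone), or 1.71 with 16 added to each intensity. AT1G54050, another of that family, read 7.80, 7.79 and 7.97 against 9.99, 9.65 and 9.88, a difference of 1.99 ± 0.32 (adjusted p = 0.000207). AT1G53540 differed by 1.83 ± 0.44 (adjusted p = 0.012), AT2G20560 by 1.42 ± 0.36 (adjusted p = 0.0167) and AT5G48570, the peptidyl-prolyl isomerase ROF2, by 1.38 ± 0.35 (adjusted p = 0.016). These 3 lost their calls when some single arrays were left out: AT1G53540 without wild type replicate 2 or anac017-1 replicate 3 (adjusted p = 0.0648 and 0.0526), AT2G20560 without wild type replicate 3 or anac017-1 replicate 1 or 2 (at most 0.0811) or on the 6 arrays alone (0.0518), and AT5G48570 without wild type replicate 1 or anac017-1 replicate 1 or 2 (at most 0.0877). Fes1A, a co-chaperone chosen after its value was seen, was higher by 1.45 ± 0.25 (adjusted p = 0.000382).

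In anac017-2 in water the same 6 genes of the list were also called higher than in the wild type, a comparison that uses the same 3 wild type water arrays. Their differences there were 5.02 for AT1G71000, 4.17 for AT5G37670, 2.86 for AT1G54050, 2.21 for AT2G20560, 2.15 for AT1G53540 and 1.77 for AT5G48570. In rao2 in water the values were -0.27, 1.41, 0.90, 0.54, 0.15 and 0.25 in that order, and none was called. AT1G21550, an EF-hand calcium-binding protein off the list, was likewise higher in both lines, with 4.59, 3.88 and 2.39 in the wild type against 7.99, 7.54 and 6.74 in anac017-1, a difference of 3.80 ± 0.78 (adjusted p = 0.00299; 0.0541 on the 6 arrays alone), and 4.18 in anac017-2. Under antimycin A and hydrogen peroxide it differed by -0.00 and 0.25 in anac017-1.

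**Figure D4:**
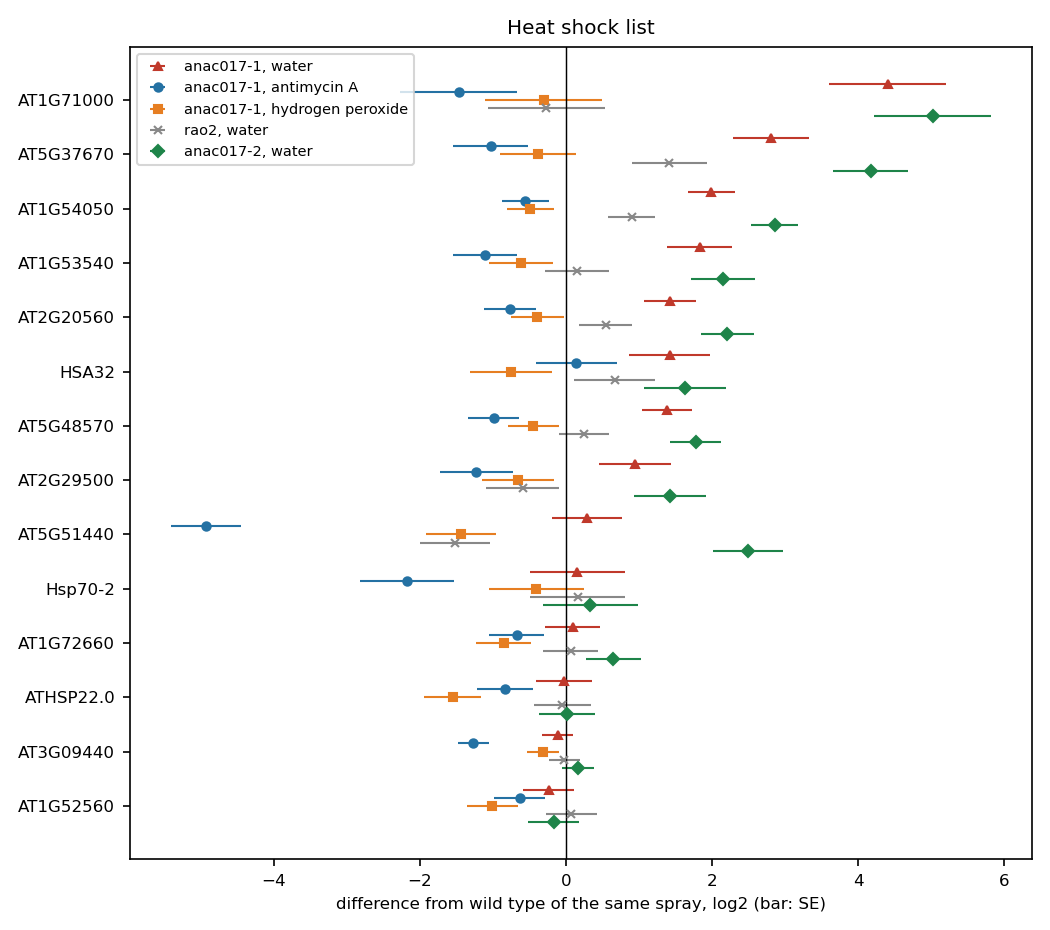
Difference from wild type of the same spray (log2, bar SE) for the 14 measured genes of the heat shock list, ordered by the anac017-1 difference in water. In the upper 5 rows and AT5G48570 the red triangles (anac017-1, water) lie at 1.38 or more and the green diamonds (anac017-2, water) at 1.77 or more. The blue circles (anac017-1, antimycin A) and orange squares (hydrogen peroxide) of these 6 genes lie below 0.

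The test of the genotype difference itself between sprays gave 266 probe sets (1.17%) higher and 411 (1.81%) lower under antimycin A than in water. Of the 855 higher in water, 65 were among those lower and 4 among those higher, and since the test uses the same water arrays that chose the 855, this count is given as a description. For hydrogen peroxide the test called 2 probe sets (0.00879%) higher and 4 (0.0176%) lower, with 2217 at an unadjusted p under 0.05. When 1 array was left out the hydrogen peroxide total of 6 ranged from 2 to 92, the highest without wild type water replicate 3 and the lowest without wild type hydrogen peroxide replicate 2. Array weights gave 481.

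AT2G42990, a GDSL-type lipase gene, gave the smallest p of the named genes in the test of antimycin A against water. In water it read 2.24, 2.24 and 2.28 in the wild type and 5.09, 4.42 and 4.76 in anac017-1, a difference of at least 2.25 since all 3 wild type arrays were at background (fitted 2.51 ± 0.10, adjusted p = 1.22e-15; 1.06 with 16 added to each intensity). Under hydrogen peroxide it was higher by at least 1.55. Under antimycin A all 6 arrays of both genotypes were at background. AT5G56310 read 2.50, 2.56 and 2.48 against 4.87, 4.39 and 4.83 in water, where 1 wild type array was at background and the other 2 close to it. The difference with low values raised to background was 2.17 (fitted 2.18 ± 0.16, adjusted p = 1.12e-09), and 0.95 with 16 added to each intensity. It was 1.59 under hydrogen peroxide, and all arrays of both genotypes were at background under antimycin A. For both genes the genotype difference under antimycin A could therefore not be measured. Their SEs and p-values used the spread shared by all 12 groups, groups at background among them. Under all alternatives and left-out arrays the adjusted p in water was at most 0.00805 for AT2G42990 and 0.00719 for AT5G56310.

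AT1G77840, another translation initiation factor eIF5 gene, changed sign. It read 10.03, 10.07 and 10.02 in the wild type and 10.54, 10.66 and 10.66 in anac017-1 in water, a difference of 0.58 ± 0.12 (adjusted p = 0.00442). Under antimycin A it was lower in anac017-1 by 1.06 on the log2 scale (fitted difference -1.06, adjusted p = 1.04e-06), and the change between the sprays was -1.64 ± 0.18 (adjusted p = 1.13e-06). AT4G30760 was higher by 0.84 ± 0.07 in water (adjusted p = 3.36e-09) and by 0.18 under antimycin A, where it was not called.

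**Figure D5:**
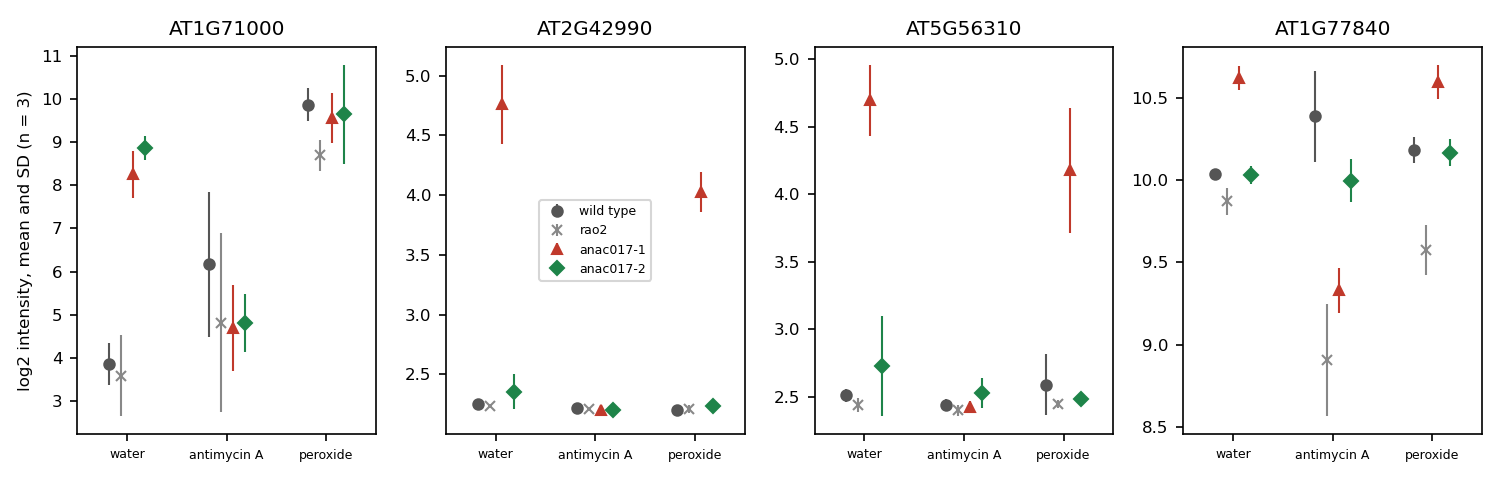
Mean log2 intensity with SD (n = 3 arrays) in 4 genotypes and 3 sprays for 4 genes. All 4 were called in the test of the genotype difference under antimycin A against water. Each panel has its own vertical scale. Red triangles (anac017-1) stand above grey circles (wild type) in water in every panel, at 8.26 against 3.85 for AT1G71000, and meet them or fall below them under antimycin A. For AT2G42990 and AT5G56310 the arrays of both were at background under antimycin A, so their genotype difference there could not be measured.

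Of the 15 named transcripts lower in anac017-1, 4 kept their call without each array in turn. Of the 15 highest, 14 did, and AT4G39670 did not, with adjusted p up to 0.141. Under the other processing settings 7 of the 15 highest and 3 of the 15 lowest kept their calls, and those lost in the fit on the 6 arrays alone included AT1G44970 (adjusted p = 0.112) and BAT1 (0.0706). LHCB4.3, a minor antenna protein of photosystem II that accumulates in strong light, read 9.29, 9.58 and 9.21 in the wild type and 8.38, 7.52 and 8.24 in anac017-1. All 3 mutant arrays were below all wild type arrays, by 1.31 ± 0.26 (2.48-fold lower, adjusted p = 0.00257; 0.069 on the 6 arrays alone), and the difference was -1.12 under antimycin A. AT5G50915, a bHLH transcription factor, read 6.72, 6.65 and 6.85 against 5.01, 5.30 and 5.44 (difference -1.49 ± 0.33, adjusted p = 0.0063), and was lower by 1.75 on the log2 scale (fitted -1.75) under hydrogen peroxide.

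AT2G32190 read 7.29, 6.80 and 7.33 against 5.59, 5.95 and 6.03, a difference of -1.28 ± 0.25 in water (adjusted p = 0.00145), -1.45 under hydrogen peroxide and 0.54 under antimycin A. AT5G17780 read 4.71, 4.96 and 3.78 against 2.99, 2.98 and 3.00, and the anac017-1 arrays were all alike just above background (difference -1.49 ± 0.23, adjusted p = 0.000118; 0.082 on the 6 arrays alone), and with 16 added to each intensity the difference was -0.70. Among the named genes called in water, the numerically largest fall was in AT3G44970, a cytochrome P450 gene, at -2.21 ± 0.51 (adjusted p = 0.00838). It read 4.32, 4.66 and 5.48 in the wild type and 3.90, 1.95 and 1.97 in anac017-1, with 2 of these at background, and its adjusted p was 0.0764 without anac017-1 replicate 2 and 0.0509 without replicate 3, and 0.152 on the 6 arrays alone. With 16 added to each intensity the difference was -0.96. SWEET1, a sugar transporter, read 6.84, 7.66 and 7.32 against 6.34, 5.82 and 5.55 (difference -1.37 ± 0.36, adjusted p = 0.022) and was not called without wild type replicate 2 or 3 or anac017-1 replicate 2 or 3, where the adjusted p was at most 0.12, or on the 6 arrays alone (0.0824).

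The lists closest to ANAC017's known role held few calls in water. Over all probe sets 3.76% were called higher and 1.67% lower, so counts of 0 or 1 in these lists lie near that share. Of the 14 measured members of the mitochondrial dysfunction stimulon, none was called, 7 differences were above 0 and 7 below, and the median was 0.14. The member furthest from the wild type, the MATE transporter AT2G04050, was at -2.45 ± 0.95 (adjusted p = 0.15). Under antimycin A, 12 of the 14 were called lower in anac017-1 and 1 higher, beside 10.2% lower and 8.4% higher of all probe sets. None of the 5 alternative respiratory pathway genes was called (median -0.01), and no subunit of the oxidative phosphorylation list but AT5G25450 was: of 19 measured, 1 was higher and 0 lower, with a median of -0.10. AT5G25450, a subunit of complex III, differed by 0.95 ± 0.26 (adjusted p = 0.0316) and lost its call without any 1 of 5 arrays (adjusted p at most 0.103).

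Of 10 photosynthesis genes, LHCB4.3 was the 1 called lower, where 1.67% of all probe sets were, and 0 were called higher. The median was -0.01. Among 7 glycosyltransferase and detoxification genes, 2 were higher and 0 lower, where 3.76% and 1.67% of all probe sets were, with a median of 1.00, and without any 1 of the 6 arrays 1 of the 7 was called. UGT73B5, a glycosyltransferase of stress responses, read 7.66, 7.36 and 7.86 against 9.09, 9.32 and 9.02 (difference 1.52 ± 0.29, adjusted p = 0.0016), and AER, an alkenal reductase that detoxifies reactive carbonyls, differed by 1.00 ± 0.28 (adjusted p = 0.0348). AER was not called without any 1 of the 6 arrays, at adjusted p from 0.0599 to 0.125. AT1G19020, on the list of reactive oxygen responses, read 8.88, 8.94 and 9.74 against 10.51, 10.45 and 10.43 (difference 1.28 ± 0.26, adjusted p = 0.00323). It was the 1 call of 5 on that list, where 3.76% of all probe sets were called higher. On the 6 arrays alone it was not called (adjusted p = 0.0668).

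The abscisic acid and cold, flavonoid, jasmonate and cell division lists held no call in water. Over all probe sets 3.76% were called higher and 1.67% lower. The median over all was -0.03, so differences below 0 were common. All 5 abscisic acid and cold genes had differences above 0 (median 1.59), led by COR15B at 1.87 ± 0.70 (adjusted p = 0.127). None of the 5 had groups apart, where 33% of all probe sets did. Groups were apart for 2 of the 7 flavonoid, 4 of the 5 jasmonate and 2 of the 4 cell division genes. All 7 flavonoid genes were below 0 (median -0.45), with the anthocyanin enzyme DFR at -1.83 ± 0.69 (adjusted p = 0.132). All 5 jasmonate genes were below 0 (median -1.14), but 1 of them was at background on every array of the series, so its sign carries no weight. All 4 cell division genes were below 0 too (median -0.91), with the Aurora kinase AUR1 at -1.04 ± 0.39 (adjusted p = 0.135). In whole leaf tissue fewer cells of a type and less RNA per cell cannot be told apart. Of 4 guard cell lineage markers, MUTE, the factor that ends divisions of stomatal precursors, was lower by 0.56 ± 0.13 on the log2 scale (fitted -0.56, adjusted p = 0.00723; 0.0626 without wild type replicate 3 and 0.211 on the 6 arrays alone), and the median of the 4 was -0.36. With 16 added to each intensity the MUTE difference was -0.17. MUTE was the 1 call among the 4 markers, where 1.67% of all probe sets were called lower. The part of stomatal precursors in the other differences was not tested.

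The other mutants gave fewer calls in water. Against the same 3 wild type arrays, rao2 gave 17 probe sets (0.0747%) higher and 13 (0.0572%) lower, and anac017-2 gave 97 (0.426%) higher and 18 (0.0791%) lower. Over the 855 probe sets higher in anac017-1 the median difference from these shared wild type arrays was 0.04 in rao2 and 0.12 in anac017-2, with 2 and 45 of them called higher. Set directly against rao2, anac017-1 had 830 probe sets (3.65%) higher and 448 (1.97%) lower, a comparison that shares the 3 anac017-1 arrays. GR was higher than in rao2 by 1.28 (adjusted p = 1.56e-08), UPF3 by 0.55 (adjusted p = 5.57e-05) and AT5G22430 by 4.07 (adjusted p = 4.15e-07). Of the 14 measured heat shock list genes, 4 were called higher than in rao2 and 0 lower, where 3.65% and 1.97% of all probe sets were. Among them AT1G71000 was higher than in rao2 by 4.67 (adjusted p = 0.000366), and AT5G37670, at 1.39, was not called (adjusted p = 0.132).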

How the data were processed

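Leaf RNA was measured on Affymetrix ATH1 arrays. The deposited values are linear intensity per probe set, already background-corrected, normalized and summarised by the authors, per the submitters' processing notes with RMA or GCRMA, and which of these gave the values is not given in the sources used here. They were converted to log2 here. Of 22810 probe sets, 64 controls were left out. Gene names came from the platform annotation updated through RefSeq gene IDs: 13513 probe sets had 1 gene, 503 several and 8730 none. A limma 3.58.1 model (R 4.3.3) with 1 mean per group was fitted to all 36 arrays, with 24 residual degrees of freedom, and p-values were adjusted by Benjamini-Hochberg within each comparison, called under 0.05, so the spread is shared by all groups. A value at or below its array's lower quartile counted as background. Where a whole group was at background, its values were raised to that quartile and the difference is given as "at least". The number of arrays limits the precision.

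The members and lists were chosen with earlier results of these data known. Genes named are the 15 highest and 15 lowest called with groups apart, called list members, neighbours of ANAC017 and the 5 lowest interaction p-values, plus genes stated to be chosen later. Lists of pentatricopeptide repeat genes, nonsense-mediated decay factors and genes named for a conserved upstream reading frame were added to the planned lists. The model was tested on simulated data. Replicate numbers did not pair the samples (correlations of deviations -0.032, 0.037 and -0.063). Alternatives were a fit on the compared groups alone, a replicate block, quantile normalization, a filter on dim probe sets, an offset of 16, array weights, a trended robust prior and leaving out each array. Promoter motifs were not analysed here.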

Additional observations from a re-analysis of the deposited data

Results flagged for a closer look

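For the genes below, the difference between anac017-1 and wild type itself differed between a spray and water in limma's interaction test (adjusted p under 0.05). The values are the difference under the spray minus that in water, on the log2 scale. All but AT5G51440 and AT3G09440 were called in water, and the test subtracts that same water difference. Changes opposite in sign to the water difference were therefore favoured by the choice of genes, and the values are given as a description. Among heat shock genes the change under antimycin A was -5.87 for AT1G71000, -5.21 for AT5G51440, -3.83 for AT5G37670, -2.94 for AT1G53540, -2.54 for AT1G54050, -2.44 for Fes1A, -2.37 for AT5G48570, -2.19 for AT2G20560 and -1.15 for AT3G09440. AT1G54050 also changed under hydrogen peroxide, by -2.48, as did AT4G30390, by -1.07.

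Other changes under antimycin A were -2.52 for AT2G42990, -2.20 for AT5G56310, -1.83 for BAT1, an acyltransferase of brassinosteroid metabolism, -1.72 for the complex III gene AT5G25450, -1.64 for AT1G77840, -1.42 for the B-box factor AT2G47890, -0.66 for AT4G30760 and -0.65 for AT2G30270. AT2G42990 and AT5G56310 were at background in both genotypes under antimycin A, so their genotype difference there could not be measured. The change was in the other direction for AT2G32190 (1.83), AT5G17780 (1.58) and AT1G01540 (0.89).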

How the results depend on the processing

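Of 59 named genes called in water, 26 kept the call under all alternatives and without each array, 28 lost it under at least 1 alternative and 21 without at least 1 array; none of these changed sign. Fitting the compared groups alone called 729 probe sets for anac017-1 in water, 1062 under antimycin A, 716 under hydrogen peroxide, 333 and 32 for the changes of the genotype difference under antimycin A and hydrogen peroxide, 4 for rao2, 71 for anac017-2 and 558 for anac017-1 against rao2; this fit has fewer samples. Array weights called 3106 in water, 3419 under hydrogen peroxide, 1485 and 481 for the 2 changes, 58 for rao2, 1891 for anac017-2 and 2751 against rao2; the cause was not tested. For the change under hydrogen peroxide (main count 6), the replicate block called 13 and the filter on dim probe sets, which kept 18087, called 18. The replicate numbers share only a number (1 of 3 arrays correlated best with its own), and with the replicate block every other total stayed within 1.5 times.

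Without 1 array the totals ranged from 641 to 1232 in water, 3209 to 4061 under antimycin A, 814 to 1333 under hydrogen peroxide, 460 to 800 and 2 to 92 for the 2 changes, 29 to 58 for rao2, 40 to 88 for anac017-2 and 719 to 1103 against rao2. The share of calls that were higher ran from 53.7% to 78%, the lower end with array weights. The shares of the higher probe sets called again, computed under alternatives added after seeing the data, ran from 48.5% to 66.1% under antimycin A and from 47.2% to 69.3% under hydrogen peroxide. Uncalled values near 0 reversed: ATHSP22.0 to 0.0118 with quantile normalization, with a range of -0.0576 to 0.0202 without 1 array, AT1G28260 (-0.527 to 0.0184 without 1 array) and AT2G39260 (-0.00623 to 0.102).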
